A study of Mus musculus with 146 samples.

Results

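Translation initiation factor genes were followed in single germ cells of the newborn mouse ovary. The genes are the gene symbols Eif1 to Eif6 with any further letters or digits, without Eif4e1b and Eif2s3y, which left 54 of 56 matching symbols among the 52605 listed. The study asked how expression differs between germ cells at the time when germ cell cysts break down and primordial follicles form. All cells came from female C57/BL6J pups of age D0.5 from 1 litter, for which the labels name no treatment and no altered gene. Their ovaries were dissociated with trypsin together, and the labels do not say which animal gave which cell. Cells were picked under the microscope, and 1 Smart-seq2 library was made from the polyadenylated RNA of each, with ERCC spike-in RNA added to the lysate. Of 146 cells, 1 had no Ddx4, a germ cell marker, and was left out because the limit was 1 TPM, a level scaled for transcript length and for the total of each cell. All other cells were used. Because no label names an animal, plate or batch for a cell, all cells count as 1 sample. Means are therefore given with the SD over cells and without a test, and a ratio is called higher or lower when it is at least 1.5-fold, which is a rule of size only.

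Initiation begins when eIF2 brings the initiator tRNA to the small ribosomal subunit together with eIF1, eIF1A, eIF3 and eIF5. The cap-binding protein eIF4E, the scaffold eIF4G and the helicase eIF4A bring in the mRNA, and eIF5B joins the large subunit. The system is held back at 2 points, by 4E-binding proteins that occupy eIF4E and by kinases that phosphorylate eIF2 and thereby block its exchange factor eIF2B. Oocytes are known for storing many mRNAs whose translation is controlled at the cap and at the poly(A) tail.

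Reads assigned to genes numbered from about 4074810 to 26855273 per cell, with a median of about 9498860. The summed TPM of 7 germ cell markers lay between 1688 and 11911, with a median of 5657. One of them, Ddx4, chose the cells, and Dazl, which did not, had between 93.3 and 1403 TPM. The study had tested its libraries by qPCR for Ddx4 and Foxl2 and dropped those with Foxl2, so low Foxl2 is no independent check. Markers of pregranulosa cells (8 genes) had a median sum of 0.376 TPM and a highest sum of 81.6, and 7 of the 8 had a median of 0. Markers of stroma (7 genes) had a median sum of 0.896 TPM, with 3 cells above 100. Markers of blood and endothelium (10 genes) had a median sum of 44.9 TPM. They reached 324516 TPM in 1 cell of the first of the 3 clusters described below, through globin RNA, and leaving that cell out took 0 ratios of the 31 genes named for size below 1.5-fold. The 9 cells with at least 15% of reads on mitochondrial genes stood apart in their initiation factor RNA and are described at the end.

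Initiation factor RNA was abundant. The 54 genes summed to 10523 ± 2666 TPM (SD over cells), with a lowest cell at 1874, a median of 11187 and a highest cell at 16324. Of these genes, 53 had a mean of at least 1 TPM, 47 of at least 10 and 26 of at least 100. The exception was Eif2c5 (0.0173 TPM, 8 cells), which the GENCODE annotation lists as a lincRNA and which has no known role in initiation. Counting a gene as detected at 0.1 TPM, 11 genes were found in every cell used, 38 in at least 95% of the cells and 3 in fewer than 50%, namely Eif4ebp2, Eif4ebp3 and Eif2c5.

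The highest gene was Eif5, the partner of eIF2 that triggers its GTP hydrolysis at the start codon, with 1198 TPM (85.7 to 4116 in single cells). It was followed by Eif4e with 887 TPM, Eif5a, an elongation factor despite its name, with 849, the eIF3 subunit Eif3g with 752 and Eif1b with 707. These 5 genes held 41.8% of the summed mean. Neighbours in this order differed by less than the SD over cells, which was 636 TPM for Eif5, 480 for Eif4e and 449 for Eif5a. The lowest coding genes were the kinase Eif2ak2 (PKR) with 2.91 TPM, Eif4ebp2 with 2.98, the kinase Eif2ak3 (PERK) with 3.40, Eif4ebp3 with 3.72 and the kinase Eif2ak4 (GCN2) with 6.25. Eif2ak1 (HRI) was the highest of the 4 eIF2 kinases at 34.2 TPM. For Eif2ak1 and Eif2ak2, only 12.7% and 12.5% of the cells with reads had whole numbers of reads (within 0.001). In the other cells Salmon divided reads between genes, so these values depend on that division.

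**Figure D1:**
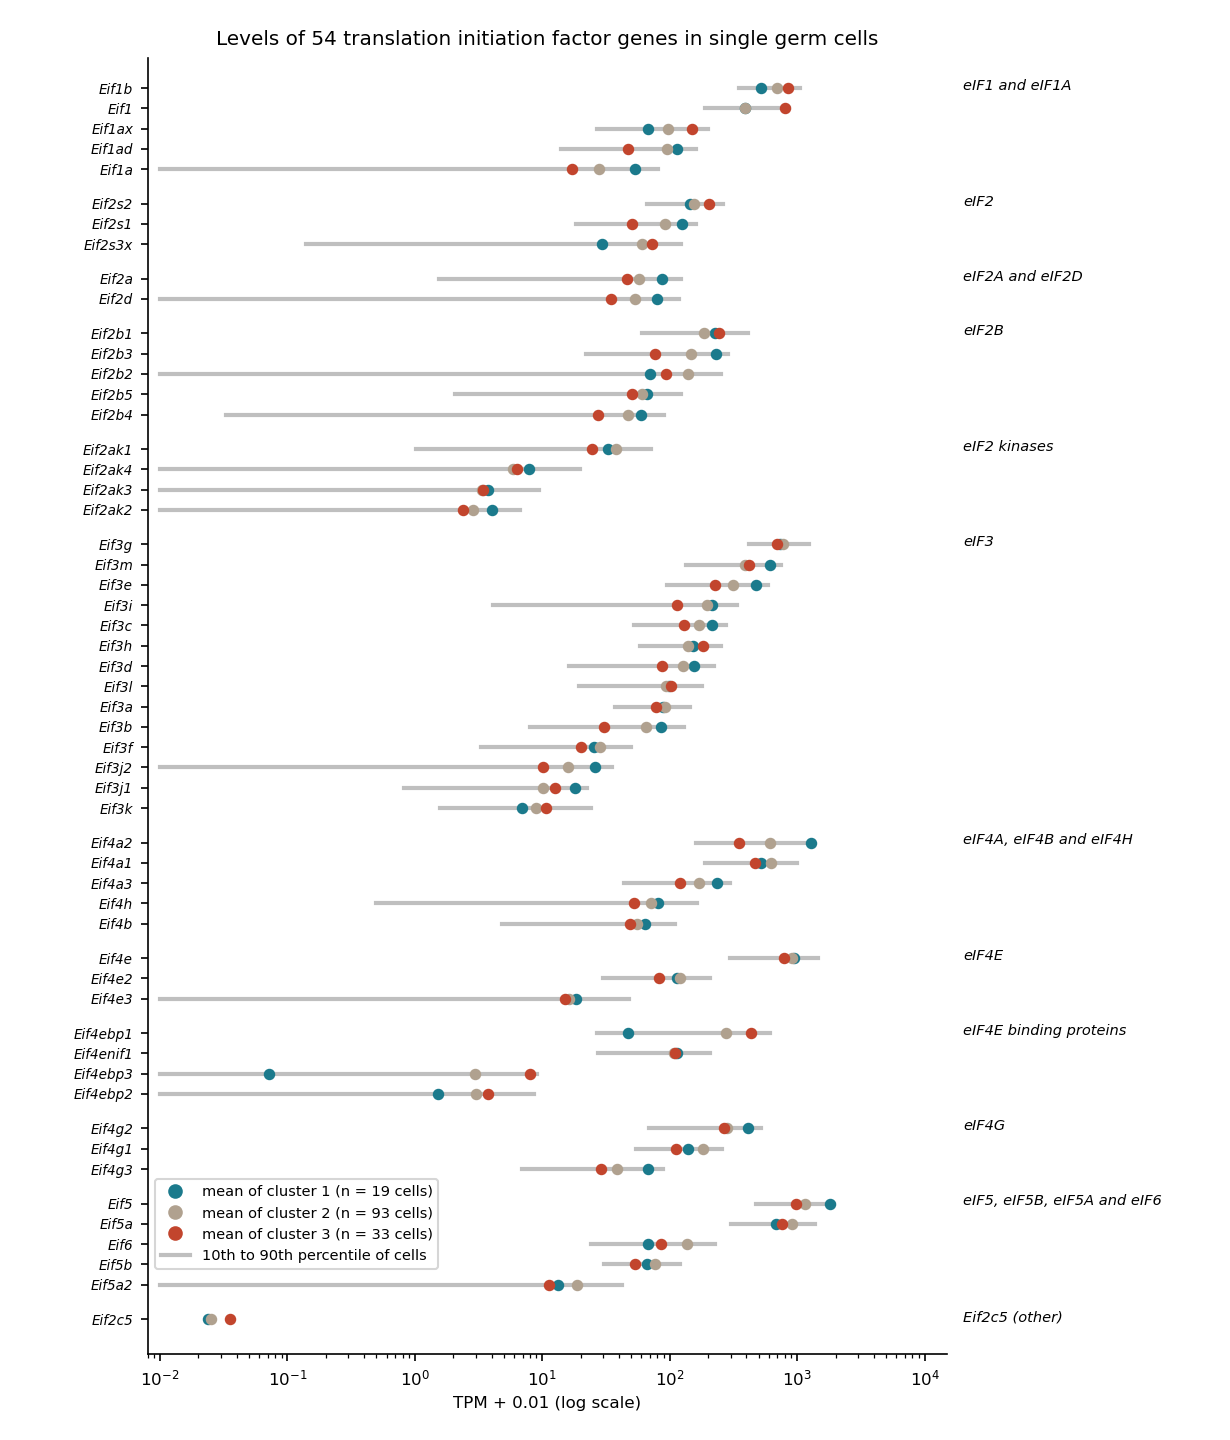
Levels of the 54 genes by role, on a log axis of TPM + 0.01. Points are means of the 19, 93 and 33 cells of clusters 1, 2 and 3, and grey bars span the 10th to the 90th percentile of the cells. Eif5 is the highest gene, Eif4a2 and Eif4ebp1 have the widest gaps between cluster means among genes above 100 TPM, and Eif2c5 lies below 0.1 TPM.

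The promoters of some of these genes hold CACGTG, the E-box that MYC and related factors are known to bind. The RefSeq promoter table (GRCm38.p6, 250 bases before to 50 bases after each start) held 43 of the 54 genes, and 10 of them (23.3%) had the motif, which reads the same on both strands. It was found in 13.1% of 6003 coding genes with a mean of at least 10 TPM and in 8.09% of all 27025 genes of the table. The 10 genes were Eif1b, Eif3a, Eif3f, Eif3k, Eif4a1, Eif4e, Eif4g1, Eif4h, Eif5a and Eif5a2. A match is a description of the letters and not a binding site. The windows of 60 bases below are those with the motif before the start (44 to 189 bases) and with no annotated exon in them, printed 5′ to 3′ on the strand of the gene, with the motif in capitals.
Eif3f, chr7:108934320-108934379, plus strand: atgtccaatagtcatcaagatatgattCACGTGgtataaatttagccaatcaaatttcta
Eif3k, chr7:28981900-28981959, minus strand: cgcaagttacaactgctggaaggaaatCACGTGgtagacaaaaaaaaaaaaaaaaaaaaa
Eif4a1, chr11:69672580-69672639, minus strand: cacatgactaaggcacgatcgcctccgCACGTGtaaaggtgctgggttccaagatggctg
Eif4g1, chr16:20672646-20672705, plus strand: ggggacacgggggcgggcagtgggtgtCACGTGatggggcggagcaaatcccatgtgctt
Eif5a, chr11:69921428-69921487, minus strand: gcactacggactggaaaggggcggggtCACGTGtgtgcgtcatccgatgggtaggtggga
Eif5a2, chr3:28781133-28781192, plus strand: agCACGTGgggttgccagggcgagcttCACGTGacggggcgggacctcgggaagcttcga
With the 3 clusters of cells introduced in the next paragraph, the log2 ratio of cluster 2 over cluster 1 had a median of 0.29 over the 10 genes with the motif, and of -0.24 over the 33 without it. Of the former, 0 were higher and 0 lower by 1.5-fold, and of the latter 3 were higher and 5 lower, where 31.6% of all genes above 1 TPM were higher and 20.8% lower. Cluster 3 over cluster 2 gave medians of -0.34 and -0.24. These are descriptions, and no test was made.

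To follow the genes through differentiation, the cells were grouped into 3 clusters with 20 oocyte and meiosis genes, none of which is an initiation factor gene. The study clustered on 20 marker genes. The 19 markers named in its text were used here and Taf4b was added from the factors it discusses, so the set may differ from the one the study used. Clusters 1, 2 and 3 held 19, 93 and 33 cells and were numbered along the first principal component, from the side where the meiosis gene Sycp2 is high. Summed over the 54 genes, the clusters had 11877 ± 2139, 10544 ± 2564 and 9682 ± 2946 TPM (SD over cells, in their order), so the means differed by about 1 SD or less. The mitochondrial share of reads differed as well, with medians of 5.20%, 6.18% and 7.72%, and without mitochondrial genes and the 9 cells named above the mean sums were 13015, 12308 and 11601. Its part in the difference was not tested. Log2 ratios below are those of mean TPM + 1. Of the 47 genes with a mean of at least 10 TPM, 26 (55.3%) had their highest mean in cluster 1, 12 (25.5%) in cluster 2 and 9 (19.1%) in cluster 3. Among coding genes of that level the shares were 44.1%, 28% and 27.9%. The lowest mean lay in cluster 3 for 32 of the 47 genes (68.1%), beside 51.2% of those coding genes.

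From cluster 1 to cluster 2, 6 of 53 genes were higher and 9 lower by at least 1.5-fold. Among all 17729 genes with a mean of at least 1 TPM, 31.6% were higher and 20.8% lower. From cluster 2 to cluster 3, 4 genes were higher and 14 lower, against 18.2% and 33.2% of all genes. From cluster 1 to cluster 3, 7 were higher and 19 lower, against 30.6% and 33.9%. The 17729 genes include genes of low mean, so a background with a higher limit was counted as well. Among the 7454 coding genes with a mean of at least 10 TPM, 21.1% were higher and 17.2% lower from cluster 1 to 2, 12.0% and 29.5% from 2 to 3, and 23.7% and 36.4% from 1 to 3. The 47 initiation factor genes above 10 TPM gave 4 higher and 9 lower, 3 higher and 14 lower, and 5 higher and 19 lower. The share of lower genes was thus near the background in each comparison, and fewer were higher. The median log2 ratios of the 53 genes were -0.13, -0.27 and -0.32, beside 0.12, -0.23 and -0.05 for all genes. For the 47 genes above 10 TPM they were -0.13, -0.41 and -0.40, beside 0.001, -0.24 and -0.23 for the coding genes of that level.

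These ratios are relative to the other RNA of a cell. Spike-in RNA had medians of 10423, 12182 and 6735 TPM in clusters 1 to 3. Dividing by it moved the median of all genes by -0.16, 0.73 and 0.49 in the 3 comparisons, and it moved the median of the 53 genes to -0.24, 0.63 and 0.31. Of 54 ratios of at least 1.5-fold among the 31 genes named for size, 16 changed sign under spike-in scaling. Lower is used below for lower than the bulk of the RNA, not for fewer molecules per cell, and in such data the amount of RNA per cell and the spike-in added cannot be told apart.

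**Figure D2:**
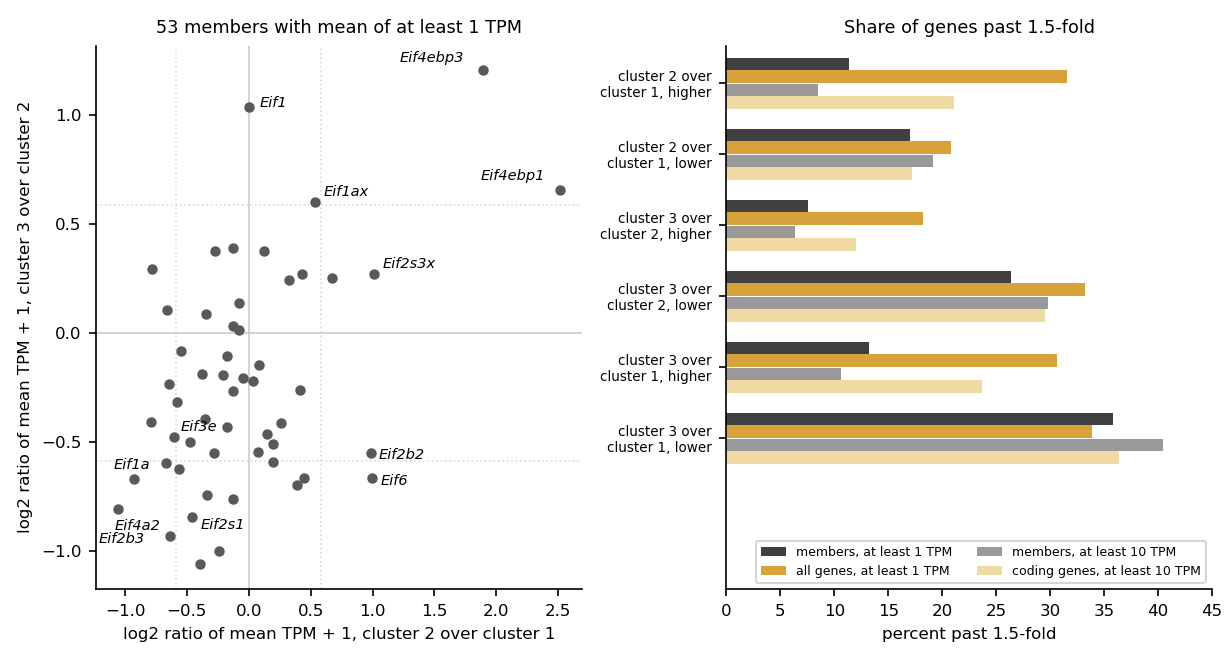
Left, log2 ratios of mean TPM + 1 for 53 genes, from cluster 1 to 2 (x axis) and from cluster 2 to 3 (y axis), with dotted lines at 1.5-fold. Right, the percent of genes past 1.5-fold in each comparison, for initiation factor genes (grey) and the matching background (yellow), in dark shades for at least 1 TPM and light shades for at least 10. Eif4ebp1 reaches 2.51 on the x axis, Eif4a2 lies at -1.05 and -0.81, and the grey bars for higher genes are shorter than the yellow ones.

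In TPM, from cluster 1 to 2 and from 1 to 3, the largest ratios in each direction among genes with means of at least 10 TPM were those of Eif4a2 and Eif4ebp1, both in the cap-binding arm. From cluster 2 to 3, Eif3b (-1.06) and Eif1 (1.04) had larger ones. Eif4a2 (chr16:23107444-23114136, GENCODE M21), which encodes one of the 2 closely related eIF4A helicases, was lower in each later cluster. Single cells of cluster 1 had between 443.9 and 3018 TPM (median 1013), those of cluster 2 between 0 and 1433 (median 511), and those of cluster 3 between 30.7 and 662 (median 364). All 33 cells of cluster 3 lay below the median of cluster 1, and 24 of them below its lowest cell. The means were 1272 ± 671 TPM, 613 ± 393 and 349 ± 147 (SD, 19, 93 and 33 cells). The log2 ratio from cluster 1 to 3 was -1.86, between -1.91 and -1.75 with each cell left out in turn, and -1.24 per spike-in. The step from cluster 2 to 3 was -0.81 and 0.08 per spike-in, where the median of all genes was 0.50. It was -0.53 as a difference of mean log2 values and -0.29 between clusters built from variable genes, both short of 1.5-fold. Across the cells Eif4a2 had a Spearman rho of -0.72 with the order of cells on the first component, and only 10 of the 7454 coding genes had a lower one. Its mean in 5 bins of 29 cells along that order was 1187, 904, 469, 302 and 332 TPM, so most of the difference lay within the first 3 bins.

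Eif4a1, which encodes the other eIF4A helicase, differed much less. Its means were 521 ± 289, 623 ± 332 and 467 ± 331 TPM, which overlap within 1 SD, and its log2 ratio from cluster 1 to 3 was -0.16. Eif4a3, whose product belongs to the exon junction complex, had means of 237, 170 and 120 TPM and a log2 ratio of -0.97. The accessory factor Eif4h had -0.61, which was -0.44 without 1 cell and 0.20 as a difference of mean log2 values, and Eif4b, the other helper of eIF4A, had -0.40.

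Eif4ebp1 (chr8:27260329-27276674), which encodes a repressor that binds eIF4E unless mTORC1 phosphorylates it, was higher in each later cluster. Its lowest, median and highest cells were at 0, 39.9 and 142.6 TPM in cluster 1, at 0.0458, 216 and 1092 in cluster 2 and at 0, 430 and 799 in cluster 3. In cluster 3, 32 of 33 cells lay above the highest cell of cluster 1, and 63 of 93 cells of cluster 2 did. The means were 47.2 ± 42.7, 274 ± 213 and 431 ± 193 TPM, and the log2 ratio from cluster 1 to 3 was 3.17 (3.09 to 3.33 with each cell left out, 4.07 per spike-in). The step from cluster 2 to 3 was 0.65, but 0.53 with Ward clusters and 0.28 between clusters built from variable genes, which is short of 1.5-fold. Its rho with the order was 0.61, and 120 of 7454 coding genes had a higher one. The reads of Eif4ebp1 were whole numbers (within 0.001) in only 14.7% of the cells with reads, so most cells had reads that Salmon divided between this gene and another, and the values depend on that division.

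In TPM the target of these proteins, Eif4e, differed little between clusters. Per spike-in its ratios were 0.90 from cluster 2 to 3 and 0.66 from cluster 1 to 3, both past 1.5-fold. The medians of all genes per spike-in were 0.50 and 0.44. Eif4e had means of 940 ± 433, 911 ± 512 and 789 ± 406 TPM, and a ratio of -0.25 between clusters 1 and 3, so the ratio of Eif4ebp1 to Eif4e means differed between clusters mainly through Eif4ebp1. The other 4E-binding protein genes were low. Eif4ebp3 was detected in 1 of 19, 16 of 93 and 12 of 33 cells, or 5.26% (exact 95% interval 0.133 to 26.03), 17.2% (10.2 to 26.4) and 36.4% (20.4 to 54.9), with means of 0.0622, 2.93 and 8.06 TPM. Only 10% of the cells with Eif4ebp3 reads had whole numbers, so its detections rest on divided reads. Eif4ebp2 was found in 3, 36 and 24 cells. These intervals cover counting error only. Eif4enif1, which encodes the eIF4E transporter 4E-T, had means of 114.4, 108.04 and 109.2 TPM. Its ratio from cluster 1 to 3 was -0.066 in TPM, but 0.59 in CPM and 0.86 per spike-in, both past 1.5-fold. The cap-binding relatives Eif4e2 and Eif4e3 were at 111.1 and 16.2 TPM over all cells. From cluster 1 to 3, Eif4e2 had -0.47 in TPM, -0.81 in CPM and 0.24 per spike-in.

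Among the eIF4G scaffolds, Eif4g2 (DAP5), which lacks the eIF4E binding site, was the highest at 296 TPM, ahead of Eif4g1 at 160 and Eif4g3 at 40.4. Eif4g3 was lower from cluster 1 to 3 by a log2 ratio of -1.20, with means of 67.96 ± 37.2 and 28.98 ± 14.99 TPM. Eif4g2 had -0.64, which was -0.53 without 1 cell, -0.52 without the 9 cells with many mitochondrial reads and 0.10 per spike-in. In TPM, Eif4g1 had its highest mean in cluster 2, 182 ± 96.9 TPM, against 138.8 ± 64.6 and 111.8 ± 66.8. Its ratio from cluster 2 to 3 was -0.70, and 0.16 per spike-in.

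**Figure D3:**
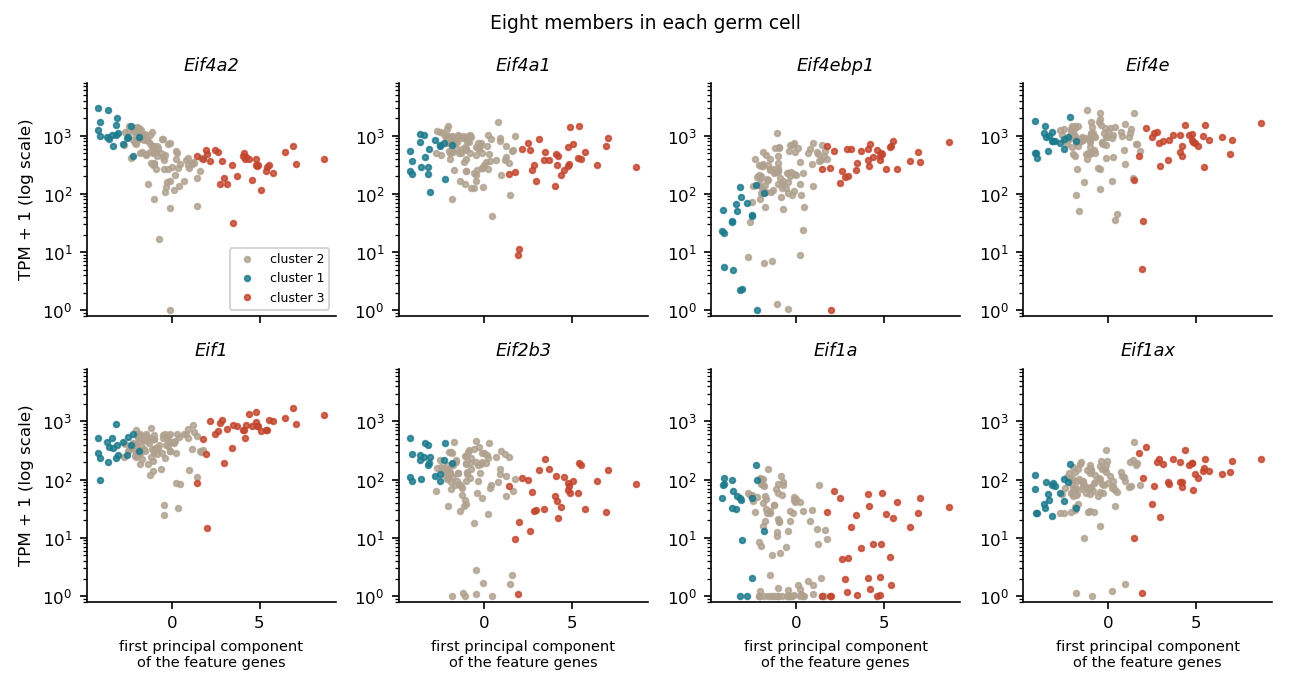
TPM + 1 (log axis) of 8 genes in each cell against the first principal component (of the 20 genes used for clustering), colored by cluster. Eif4a2 declines across the axis (rho -0.72), Eif4ebp1 climbs (0.61), Eif1 is higher at the right end, and Eif4a1 and Eif4e show no comparable slope.

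The genes of eIF1 and eIF1A, which guard start codon choice, differed in both directions. Eif1 had between 98.7 and 899 TPM (median 367) in cluster 1, between 24.1 and 867 (368) in cluster 2 and between 13.7 and 1681 (823) in cluster 3. The first 2 clusters were nearly the same, and 28 of 33 cells of cluster 3 lay above the median of cluster 1. The log2 ratio was 0.01 from cluster 1 to 2 and 1.04 from cluster 2 to 3, the latter 0.55 and short of 1.5-fold between clusters built from variable genes. Along the order the first 4 bins had means between 354 and 403 TPM and the last bin 877. Its relative Eif1b differed less, with means of 518 ± 282, 698 ± 237 and 842 ± 334 TPM and a log2 ratio of 0.70 from cluster 1 to 3. Eif1ax and Eif1a encode near-identical forms of eIF1A and ran in opposite directions. Eif1ax, on the X chromosome, had means of 67.02, 97.5 and 148 TPM (1.13 from cluster 1 to 3), and Eif1a, on chromosome 18, had 53.6, 27.8 and 17.1 TPM (-1.60). Eif1ad, named for an eIF1A domain, was lower by a log2 ratio of -1.24.

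The 3 subunits of eIF2 did not move together. Eif2s3x, which encodes the subunit that binds GTP and the initiator tRNA, had means of 29.4 ± 31.9, 60.3 ± 57.8 and 72.9 ± 36.8 TPM and a log2 ratio of 1.28 from cluster 1 to 3. Eif2s1, which encodes the subunit phosphorylated by the eIF2 kinases, had 125.6 ± 64.97, 91.3 ± 58.6 and 50.5 ± 30.4 TPM and a ratio of -1.30, with all 33 cells of cluster 3 below the median of cluster 1. Eif2s2 lay between them with 143.1, 156 and 203 TPM and a ratio of 0.50, which was just past 1.5-fold in CPM with 0.59 and 1.24 per spike-in. The ratio of the highest to the lowest subunit mean was 2.79 over all cells and 4.87, 2.59 and 4.02 in the 3 clusters.

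Among the 5 genes of the exchange factor eIF2B, Eif2b3 showed the largest difference, with means of 230 ± 123.99, 147 ± 106.6 and 76.7 ± 56.2 TPM and a log2 ratio of -1.57 from cluster 1 to 3. In cluster 3, 32 of 33 cells lay below the median of cluster 1. Eif2b2 had its highest mean in cluster 2 (69.4, 138.3 and 94.3 TPM). Its ratio from cluster 2 to 3 was -0.55, within 1.5-fold, and 0.37 per spike-in. Eif2b4 had -1.09 from cluster 1 to 3, but 1 cell of cluster 1 with 524 TPM carried this value, which was -0.28 without that cell and 0.16 per spike-in. Eif2b1 and Eif2b5 had ratios of 0.10 and -0.39 from cluster 1 to 3. Eif2b5 was at -0.59 in CPM, just past 1.5-fold, and at 0.26 per spike-in. From cluster 2 to 3, Eif2b1 had 0.38 in TPM, but 0.69 in CPM and 1.44 per spike-in. The alternative initiator tRNA carriers Eif2a and Eif2d had -0.90 and -1.19, where Eif2a had whole-number reads in only 7.64% of the cells with reads. In TPM, none of the 4 eIF2 kinases differed by 1.5-fold from cluster 1 to 3. Eif2ak2 was just under the limit with -0.57 and past it in CPM with -0.65. With each cell left out in turn, its TPM ratio ranged from -0.81 to 0.31. Eif2ak1 was lower from cluster 2 to 3 with -0.59, which was -0.46 without 1 cell.

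The 14 eIF3 genes encode the largest initiation factor, which bridges the small subunit and the mRNA. In TPM none was higher by 1.5-fold in any comparison, 4 were lower from cluster 1 to 2, 3 from cluster 2 to 3 and 6 from cluster 1 to 3. Of all genes above 1 TPM, 20.8%, 33.2% and 33.9% were lower, so nothing particular to eIF3 is read from these counts of 14. Eif3k was just under the limit from cluster 1 to 3 with 0.56. In CPM (estimated reads scaled to the total of each cell) it was past the limit with 0.80, and with 0.74 from cluster 1 to 2. Its rho with the order was 0.42. The 6 genes lower from cluster 1 to 3 were Eif3b (-1.46), Eif3j2 (-1.27), Eif3e (-1.08), Eif3i (-0.89), Eif3d (-0.83) and Eif3c (-0.74). Per spike-in, Eif3i and Eif3c were at 0.11 and Eif3d at -0.019. Eif3d was at -0.52 in CPM. Eif3b, a core scaffold subunit, had means of 85.9 ± 52.3, 65.02 ± 46.9 and 30.7 ± 26.02 TPM, and Eif3e had 476 ± 241, 313 ± 196 and 225 ± 120. Eif3m was lower from cluster 1 to 2 with a ratio of -0.66 (-0.58 without 1 cell) and means of 614 and 388 TPM. Eif3g, Eif3h, Eif3l, Eif3a and Eif3f stayed within 1.5-fold. RNA levels of the subunits were far from equal, since Eif3g at 752 TPM was 82.6 times as high as Eif3k at 9.10, and still 29.03 times as high as Eif3f when Eif3j1, Eif3j2 and Eif3k were set aside. Eif3j1 and Eif3j2 are near-identical copies whose reads were whole numbers in 2.07% and 0.833% of the cells with reads, so the split between them is uncertain.

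Of the factors of the last steps, Eif5 (chr12:111538016-111546752) had between 657 and 4116 TPM in cluster 1 (median 1491), between 85.7 and 2380 (1140) in cluster 2 and between 134.6 and 1988 (888) in cluster 3. The ranges overlapped, and 28 of 33 cells of cluster 3 lay below the median of cluster 1. The log2 ratio from cluster 1 to 3 was -0.88 in TPM and 0.06 per spike-in. In TPM, Eif6, which keeps the large subunit from joining too early, was highest in cluster 2, with 67.7 ± 48.6, 136.2 ± 108.5 and 85.4 ± 61.4 TPM. Its ratio from cluster 2 to 3 was -0.67, but -0.52 in CPM and 0.23 per spike-in, so per spike-in cluster 3 was highest. Eif5b had 66.1, 75.99 and 53.04 TPM and Eif5a 684, 914 and 762 TPM, both within 1.5-fold. Its relative Eif5a2 was lower from cluster 2 to 3 by -0.66, with means of 18.5 and 11.3 TPM, but by -0.52 in CPM and -0.19 as a difference of mean log2 values.

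Where a factor has several gene copies, the share of each copy shows which one the cells used at the RNA level. Of the Eif4a1 and Eif4a2 TPM, Eif4a2 made up 70.9%, 49.6% and 42.8% in clusters 1 to 3, and it was the larger of the pair in 16 of 19, 42 of 93 and 13 of 33 cells. Eif1ax made up 55.5%, 77.8% and 89.7% of the Eif1a and Eif1ax TPM, and it was the larger in 12 of 19, 78 of 93 and 32 of 33 cells. In estimated reads, which weigh the longer transcript of Eif1ax more, these shares were 78.8%, 90.5% and 96.03%. Eif1 made up 42.7%, 35.7% and 48.6% of Eif1 and Eif1b. Eif4g2 was the largest of the Eif4g genes in each cluster with 66.7%, 56.1% and 65.4%. Eif3j2 made up 58.7%, 60.9% and 44.5% of Eif3j1 and Eif3j2, with the uncertain split named above. A single copy dominated in the 3 clusters for Eif4e with 87.5% over all cells, Eif4ebp1 with 97.7% and Eif5a with 98.1%. Eif4a1 and Eif4a2 had whole-number reads in 70.3% and 70.1% of the cells with reads, so part of their reads was divided by Salmon in the other cells. For Eif1ax this share was only 31.2%, so its values rest on divided reads in most cells.

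**Figure D4:**
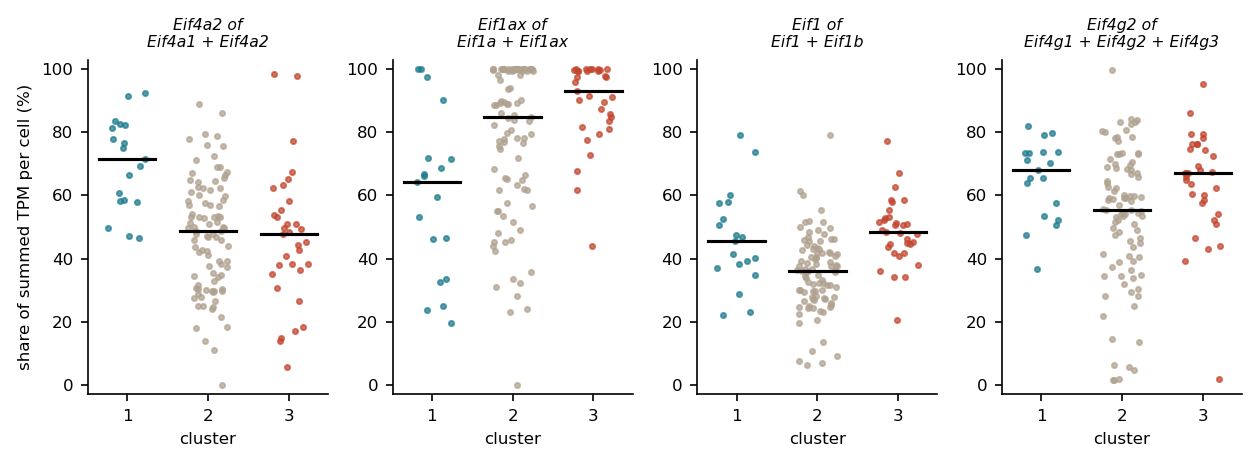
Share of 1 gene in the summed TPM of its family in each cell, by cluster. Points are cells and black lines are medians. The median share of Eif4a2 is 71.5% in cluster 1 and 47.6% in cluster 3, and that of Eif1ax is 64.3% and 93.001%.

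Initiation factor genes varied together only weakly across cells. The 1081 pairs of the 47 genes above 10 TPM had a median rho of 0.11, and the pairs of the 7454 coding genes had 0.0456. Pairs within eIF3 had a median of 0.19, within eIF2B 0.14 and within eIF2 0.025. The highest pairs were Eif2s1 with Eif3e (0.62, and 0.61 within cluster 2), Eif1ax with Eif4ebp1 (0.54, and 0.49) and Eif4e with Eif5a (0.53, and 0.54). The lowest was Eif4a2 with Eif4ebp1 (-0.47, and -0.31 within cluster 2). All pairs share the libraries and their depth, so these values are descriptions. With the mitochondrial share of reads, Eif2s1, Eif3e, Eif4e and Eif5a had rhos of -0.58, -0.38, -0.44 and -0.45, and Eif1ax and Eif4ebp1 -0.024 and 0.12. The part of that share in the pairs, also within cluster 2, was not tested. The coefficient of variation over cells had a median at or below that of coding genes of like level. For genes of 30 to 100 TPM its median was 0.783 for 15 initiation factor genes and 1.01 for 2908 coding genes, and for 100 to 300 TPM it was 0.702 and 0.721. The steadiest was Eif1b with 0.399, and among genes above 300 TPM Eif4a2 was the most variable with 0.754.

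Cells with a large share of mitochondrial reads had less initiation factor RNA in TPM rescaled to nuclear genes, which leaves mitochondrial genes out of the total. Across the cells, the rescaled sum of the 54 genes had a rho of -0.58 with the percent of reads on mitochondrial genes, and -0.49 in the cells below 15%. The 9 cells at or above 15%, a limit chosen after the values were seen, had sums between 2626 and 6740 (median 4961), and the rest had between 5405 and 16810 (median 12549). Among the rest, 2 cells lay below the highest of the 9. The 9 cells belonged to cluster 2 (6 cells) and cluster 3 (3 cells), with sums of 4481 to 6740 and 2626 to 6452, beside 5415 to 16319 and 5405 to 14666 for the rest of these clusters.

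In these 9 cells 34 of the 47 genes above 10 TPM were lower by at least 1.5-fold than in the rest and 3 were higher, whereas 44.1% of the 7454 coding genes were lower and 24.1% higher. Of 53 genes above 1 TPM, 37 were lower and 4 higher, beside 45.6% and 30.0% of all genes above 1 TPM. The median log2 ratio was -1.10 for the 47 genes and -0.38 for the coding genes. Eif5a had 0.414 to 546 TPM of nuclear RNA (median 81.9) in the 9 cells, against a median of 966 in the others. Eif2s1 had a median of 3.19 against 90.8, and Eif3b 1.28 against 61.8. The lowest 5 log2 ratios were those of Eif1a (-3.49), Eif3b (-3.36), Eif3i (-3.29), Eif2b3 (-3.14) and Eif5a (-2.87), and Eif4e had -2.33. With each cell left out in turn, Eif3b ranged from -4.45 to -3.22, Eif3i from -4.07 to -3.13 and Eif5a from -3.54 to -2.70. The order of these genes therefore depends on single cells.

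The difference was uneven. Eif4a2, with a mean of 520 against 732 TPM, had -0.49, Eif4g1 had 0.23, Eif2a 0.013, and Eif3a and Eif5b 0.59 each, which without 1 cell came to 0.43 and 0.24. Eif3f had 1.24 through 1 cell with 448 TPM and -0.54 without it, and Eif2ak2 had 2.22 and -0.63 in the same way. Over all cells 14 of the 47 genes (29.8%) had a rho below -0.3 with the mitochondrial share, against 8.72% of the coding genes, with the lowest values in Eif2s1 (-0.58) and Eif5 (-0.56). The 9 cells also differed in other measures. Their germ cell marker sum had a median of 2380 TPM against 5932, their spike-in RNA 18675 TPM against 10565, and their coding genes 643586 TPM against 816216, at a median of 7082130 against 9542410 reads. The part of cell quality in these values was not tested.

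**Figure D5:**
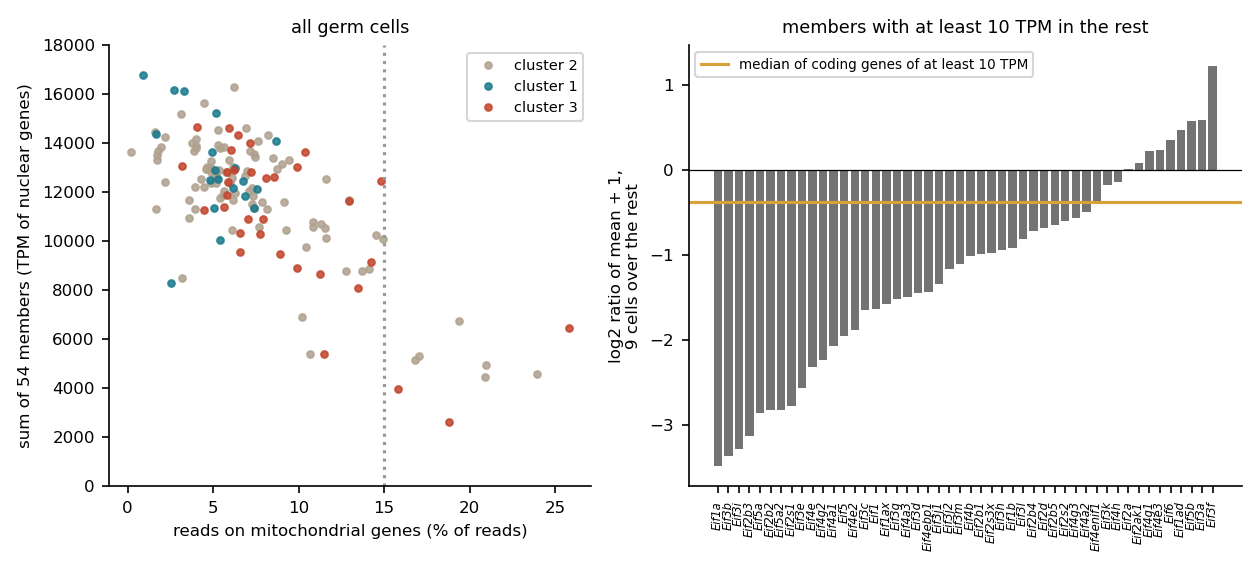
Left, summed TPM of the 54 genes, rescaled to nuclear genes, against the percent of reads on mitochondrial genes in each cell, colored by cluster, with a dotted line at 15%. Right, log2 ratio of the mean + 1 of the 9 cells at or above the line over the rest for each gene with at least 10 TPM in the rest, with the median of coding genes (-0.38) as a yellow line. The 9 cells lie between 2626 and 6740, and most bars reach below the yellow line.

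Of 50 other genes of the translation machinery and its control, listed by role, 48 had a mean of at least 1 TPM. From cluster 1 to 2, 9 of them were higher and 5 lower by 1.5-fold, from 2 to 3 the numbers were 4 and 12, and from 1 to 3 they were 4 and 15. Among all genes above 1 TPM, 31.6% and 20.8%, 18.2% and 33.2%, and 30.6% and 33.9% were higher and lower. Of coding genes above 10 TPM, 21.1%, 12.0% and 23.7% were higher. The 13 mTORC1 and MNK genes, whose kinases act on the 4E-binding proteins and on eIF4E, had 6 higher and 0 lower from cluster 1 to 2, 0 higher and 4 lower from 2 to 3, and 2 higher and 4 lower from 1 to 3. The largest ratios from cluster 1 to 3 were those of the poly(A) binding protein Pabpc4 (5.35, means of 5.12, 47.1 and 249 TPM) and of the S6 kinase Rps6kb2 (1.37). The lowest were asparagine synthetase Asns (-3.02), a target of the stress factor ATF4, and Pabpc1l (-2.11). Pabpc1l was near the floor, with 6.52, 0.024 and 0.74 TPM in clusters 1 to 3. The related Pabpc1 had 250, 191 and 99.03 TPM and a ratio of -1.33, so of these 3 poly(A) binding proteins Pabpc4 was higher and the others lower. Atf4 had 65.9, 68.3 and 85.5 TPM, within 1.5-fold. Mtor itself had 44.5, 46.7 and 15.1 TPM and a log2 ratio of -1.57 from cluster 2 to 3. Per spike-in this ratio was -0.46, short of 1.5-fold, where the median of all genes was 0.50. Pabpc1 had -0.60 per spike-in from cluster 1 to 3.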

How the data were processed

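Single germ cells were sequenced with Smart-seq2. For every cell, the authors ran Salmon against mm10 and the spike-in sequences, with bias correction. The deposited files give TPM per gene symbol, normalized by the authors within each cell over genes and spike-ins, and the estimated count of reads, which the authors left without normalization. The deposited effective lengths were used only for spike-ins. The annotation release is not given in the sources used here, so symbols were matched to GENCODE M21 for gene type and position.

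All 146 cells passed the limits of the study (500000 reads, 35% mitochondrial, 4% spike-in) in estimated reads, and 141 did when these were read from TPM. The study itself left out a few cells by these limits, so cells that it dropped are among those used here. TPM values were clustered anew (Seurat 5.3.0 under R 4.3.3), and the clusters differ in size from those the study states. Python 3.11.15 (SciPy 1.17.1, NumPy 2.4.6, pandas 2.3.3) gave means, ratios with a pseudocount of 1 TPM, detection shares with exact 95% intervals (Clopper-Pearson) and rank correlations without p-values, and the ratios were tested on simulated data. Named genes are those of at least 10 TPM in a cluster with a 1.5-fold ratio in any comparison, the extremes of each role and each paralogue family. For the other genes of the pathway they are the largest ratios, and Pabpc1, Atf4 and Mtor were named after their values were seen. The genes and lists were chosen with earlier results of these data known. Cells are not replicates, and the spread between animals is not analysed here.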

Additional observations from a re-analysis of the deposited data

How the results depend on the processing

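The direction of the 3 median ratios held under CPM, nuclear TPM, a pseudocount of 0.1, mean log2 values, Ward clusters, rebuilt clusters, clusters without Taf4b, all 146 cells, other quality limits and no minimum level. With each cell left out, the medians ranged from -0.17 to -0.08, -0.39 to -0.22 and -0.38 to -0.29, and the counts of genes past 1.5-fold from 12 to 18, 15 to 19 and 25 to 28. Beside those named in the report, leaving out 1 cell ended the 1.5-fold difference of Eif5 (-0.54), Eif3e (-0.53), Eif2b3 (-0.54), Eif3j1 (-0.40) and Eif3j2 (-0.52) from cluster 1 to 2, and of Eif1ax (0.54), Eif2d (-0.58), Eif2b4 (-0.58) and Eif3j2 (-0.38) from cluster 2 to 3. In CPM 12 ratios of the 31 genes were no longer past 1.5-fold, and the counts were 17, 13 and 29. They were Eif2b3 (-0.57) and Eif3j1 (-0.37) from cluster 1 to 2, Eif6 (-0.52), Eif2d (-0.49), Eif2b4 (-0.51), Eif2ak1 (-0.46), Eif1a (-0.55), Eif5a2 (-0.52) and Eif3j2 (-0.39) from cluster 2 to 3, and Eif3d (-0.52), Eif4h (-0.37) and Eif2b4 (-0.16) from cluster 1 to 3. Per spike-in the medians were 0.63 from cluster 2 to 3 and 0.31 from cluster 1 to 3. From cluster 2 to 3 the ratios of Eif4a2 (0.078), Eif3i (0.15), Eif4g1 (0.16), Eif6 (0.23), Eif2s1 (0.17), Eif2d (0.30), Eif2b4 (0.24), Eif2ak1 (0.35), Eif1a (0.46), Eif5a2 (0.26) and Eif3j2 (0.33) then turned positive, as did those of Eif5 (0.059), Eif4g2 (0.10), Eif3i (0.11), Eif3c (0.11) and Eif2b4 (0.16) from cluster 1 to 3. A further 13 ratios were no longer past 1.5-fold, those of Eif2b3 (-0.00015), Eif1ad (-0.076) and Eif3b (-0.15) from cluster 2 to 3 and of Eif3e (-0.28), Eif4a3 (-0.19), Eif3d (-0.019), Eif1ad (-0.58), Eif2s1 (-0.46), Eif4h (-0.16), Eif3b (-0.53), Eif2a (-0.33), Eif2d (-0.46) and Eif4g3 (-0.58) from cluster 1 to 3. This setting adds the shift of all genes given above. Mean log2 values gave 26 genes past 1.5-fold from cluster 1 to 2 and 0.20 for Eif4h from cluster 1 to 3, and 9 ratios were no longer past it, with Eif4a2 at -0.53 from cluster 2 to 3. Clusters from the 2000 most variable genes, which kept 90 cells in the cluster of the same number, gave a median of 0.073 from cluster 1 to 2 and 0.041 for Eif2b3, 0.48 for Eif3j2 and 0.31 for Eif3j1. A further 17 ratios were then no longer past 1.5-fold, among them Eif4a2 (-0.29), Eif4ebp1 (0.28) and Eif1 (0.55) from cluster 2 to 3 and Eif5 (-0.50) and Eif1b (0.31) from cluster 1 to 3, and 11 others moved. The cause was not tested. Clusters without Taf4b (140 cells kept their number) gave 14, 19 and 29 genes past 1.5-fold, with 5 ratios no longer past it. Leaving out the 9 cells with many mitochondrial reads gave 15, 16 and 26 genes past 1.5-fold, and leaving out the globin cell gave 16, 18 and 28. These 2 settings and the clusters without Taf4b were chosen after seeing the data. No paired analysis was possible because all cells form 1 group without pairs. Without animals, the spread between litters is unknown.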
